A study of Mus musculus with 12 samples.

Results

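The CD28 receptor family is described here through 5 genes, Cd28, Ctla4, Icos, Pdcd1 and Btla, out of 19938 mouse genes measured. They were found by their symbol in the platform annotation, and each was named by 1 row of the deposited table, so that no choice between rows was needed. Expression had been profiled on 12 whole-transcript arrays of CD8+CD28low regulatory T cells, a CD8 T cell subset defined by little CD28 on its surface. Activated KO cells came from C57Bl/6 mice labelled AIRE ko and had been kept for 96 h with allogenic antigen-presenting cells (APC) and an antibody to CD3. Activated WT cells had the same culture and came from wild-type mice of that strain. Native KO and native WT cells were the freshly isolated counterparts. Each of the 4 groups held 3 arrays, which the labels call biological replicates and which are named array 1, 2 and 3 after their number there. The sources used here do not give the type of Aire allele, the age of the mice, the number of mice behind an array or the sorting method. The p-values below therefore measure the spread between these arrays, which may be partly technical.

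CD28 is the main costimulatory receptor of T cells: it binds CD80 and CD86 on antigen-presenting cells and adds to the signal of the T cell receptor. CTLA-4 binds the same ligands more tightly and restrains the response, while ICOS is an inducible costimulator with a ligand of its own. PD-1, encoded by Pdcd1, and BTLA are inhibitory receptors that recruit phosphatases, PD-1 after binding PD-L1 or PD-L2 and BTLA after binding HVEM. In the RefSeq gene table Cd28, Ctla4 and Icos lie side by side on chromosome 1 with no other protein-coding gene between them, Pdcd1 lies elsewhere on chromosome 1, and Btla lies on chromosome 16. Resting T cells are known to carry CD28 and BTLA, and activation is known to induce CTLA-4, ICOS and PD-1.

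Values are log2 expression as deposited, and a difference of 1 on that scale is a doubling. Background was taken on each array as the 95th percentile of 1027 olfactory receptor genes, a family of the nasal epithelium, and it ran from 6.12 to 6.72 on 11 arrays and was 7.31 on activated KO array 3. That array stood apart from the others: its olfactory receptor genes had the highest median (6.34) and its values the narrowest interquartile range (2.19). The mean of 6 measured CD8 T cell markers was 10.57 on it, against 11.34 and 11.80 on the other activated KO arrays and 11.41 to 11.80 on the activated WT arrays. The differences of the receptor genes are given without it as well where it changes a call, a direction or a size by much. The counts of the gene lists were also refitted without it. Its part in the SD ranks, group orders and rankings by r given below was not tested. The label was checked against markers: none of the 6 CD8 T cell markers (Cd3d, Cd3e, Cd3g, Cd247, Cd8a, Cd8b1) lay at background in any group. Of 3 CD4 T cell markers, Cd4 and Cd40lg lay at background on every array. Zbtb7b did so on the native arrays and on activated KO array 3 (6.65), with means of 7.35 in activated KO and 7.67 in activated WT cells. Of 6 neutrophil and 4 NK cell markers, 0 lay at background on all 3 arrays of a native group, and these are described further below. Native KO array 1 and activated KO array 1 had Xist at 5.26 and 4.98, against 9.34 to 11.47 on the other 10 arrays, and no value was adjusted for this difference in a sex-linked transcript.

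Cd28 itself, the gene whose product defines the subset, was well above background on all 12 arrays. In activated KO cells it measured 10.99, 11.25 and 9.98 on arrays 1 to 3 (log2), and in activated WT cells 11.06, 11.04 and 10.80. In native KO cells it was 11.03, 11.97 and 11.58, and in native WT cells 11.36, 11.94 and 11.21. Array 2 was the highest of its group in activated KO, native KO and native WT cells, and activated KO array 3 was the lowest of all 12. No CD28-high cells were measured beside these, and the arrays therefore show only that the transcript was present, not that it was low.

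Ctla4 had the largest SD of the 5, in activated KO cells. It stood at 9.60, 11.09 and 6.46 in activated KO cells and at 10.15, 10.91 and 10.21 in activated WT cells. Native levels were 7.77, 8.57 and 8.53 in KO and 8.01, 8.13 and 7.86 in WT cells. Activated KO arrays 1 and 2 thus lay above every native array, whereas array 3 lay under every native array and under its own background of 7.31. The SD of Ctla4 among the activated KO arrays was 2.37, and only 3 of the 19938 genes had a higher one. Its value on activated KO array 3 was -3.89 relative to the mean of arrays 1 and 2, and 2 genes were lower still by this measure.

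Icos, the inducible costimulator, was at 11.07, 11.07 and 9.85 in activated KO cells and at 11.10, 10.85 and 10.98 in activated WT cells, against 9.83, 9.70 and 9.72 in native KO cells and 9.87, 9.57 and 9.42 in native WT cells. Every activated array lay above every native array of its genotype, although activated KO array 3, at 9.85, barely exceeded the highest native KO value of 9.83. Btla moved the other way: it was at 7.11, 7.75 and 7.35 in activated KO cells and at 7.65, 8.16 and 7.53 in activated WT cells. Its native levels were 8.78, 8.51 and 8.87 in KO cells and 8.83, 8.68 and 8.41 in WT cells, all above the activated ones. On activated KO array 3 its value was barely above that array's background of 7.31.

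Pdcd1 lay close to background and was above it on all 3 arrays of no group. It was at 6.67, 6.71 and 7.14 in activated KO cells, with array 3 under its background, and at 6.78, 6.63 and 7.83 in activated WT cells, with array 2 under its background of 6.72. In native KO cells it was at 6.32, 6.32 and 6.24 and in native WT cells at 6.19, 6.19 and 6.01, at or close to background on each of these arrays. Of the 5 genes Pdcd1 alone failed the filter that asks for a level above background on all 3 arrays of at least 1 group. Differences so near background are compressed by the RMA summary, and the sizes given for Pdcd1 are read with that limit.

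**Figure D1:**
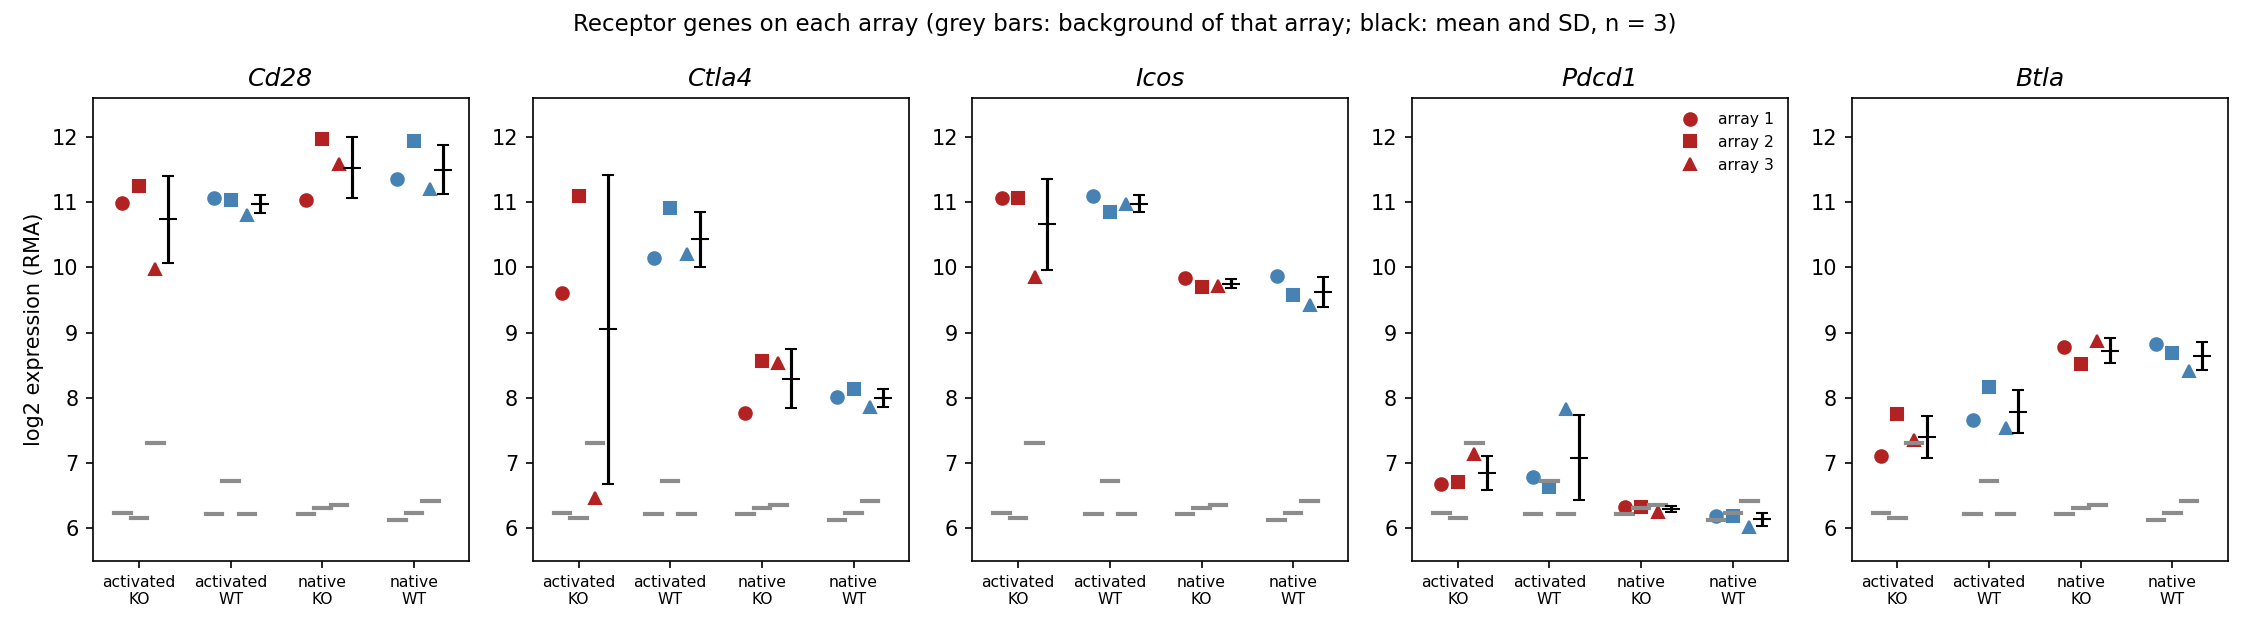
Log2 expression of Cd28, Ctla4, Icos, Pdcd1 and Btla on each array, with 1 symbol shape per array number, red for KO and blue for WT, grey bars for the background of the same array and black bars for mean and SD (n = 3). Btla separates activated from native arrays, Icos does so within each genotype, Pdcd1 lies near background, and activated KO array 3 has Ctla4 at 6.46, under its background of 7.31. Levels of different genes come from different probes and are not comparable with each other.

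The first comparison asked how the family responded to culture with APC and anti-CD3. By the experiment numbers in the descriptions, native and activated arrays came from different experiments. Each difference between the states is therefore also one between experiments. In both genotypes the transcript of the costimulator Icos rose and that of the inhibitory receptor Btla fell. Icos was higher by 0.91 ± 0.27 on the log2 scale in activated than native KO cells (SE, n = 3 per group; limma, adjusted p = 0.0316), or 1.88-fold, and by 1.36 ± 0.27 in WT cells (adjusted p = 0.00363), or 2.56-fold. Btla fell by 1.32 ± 0.20 in KO cells (limma, adjusted p = 0.000726), or 2.49-fold, and fell by 0.86 ± 0.20 in WT cells (adjusted p = 0.00959), or 1.82-fold. Pdcd1 rose in WT cells, by 0.95 ± 0.25 (limma, adjusted p = 0.0201). In KO cells its difference was 0.55 ± 0.25 and did not pass (adjusted p = 0.176), although the 3 activated KO arrays lay above the 3 native KO arrays. It passed without activated WT array 3, which enters through the shared error (limma, adjusted p = 0.0161).

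Ctla4 did not pass in either genotype in the fit of all 12 arrays. Its difference was 0.76 ± 0.83 in KO cells (SE, n = 3 per group; limma, adjusted p = 0.641) and 2.43 ± 0.83 in WT cells (adjusted p = 0.0619). In WT cells this was a 5.37-fold higher level, with all activated WT arrays above all native WT arrays. The 4 groups share 1 error per gene in this fit. Without activated KO array 3, Ctla4 was higher by 2.06 in activated KO cells (limma, adjusted p = 0.00241) and by 2.43 in activated WT cells (adjusted p = 0.000285). Without activated KO array 2 the KO difference was -0.26 (adjusted p = 0.829) and the WT difference passed at 0.0124. With the 6 WT arrays alone it passed as well (adjusted p = 0.000178).

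Cd28 was lower after activation by values that did not pass: the difference was -0.79 ± 0.32 in KO cells (SE, n = 3 per group; limma, adjusted p = 0.118; 95% interval -1.49 to -0.083) and -0.54 ± 0.32 in WT cells (adjusted p = 0.317; 95% interval -1.24 to 0.17). In WT cells the activated arrays all lay below the native ones, and in KO cells the groups overlapped. Without activated KO array 3 the KO difference was -0.41 (adjusted p = 0.317), and with array 2 of that group left out it was -1.04 and passed (adjusted p = 0.0426).

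Over the family, 1 of the 5 genes rose and 1 fell in KO cells, where 20.1% of all genes were called (8.72% higher and 11.4% lower). In WT cells 2 rose and 1 fell, where 20.6% of all genes were called (9.72% higher and 10.9% lower). The activated and native groups did not overlap for 3 of the 5 genes in KO cells, against 30.9% of all genes, and for all 5 in WT cells, against 41% of all genes. In each genotype 3 of the 5 differences lay above 0 and 2 below it. The median difference of the family was thus that of Pdcd1, 0.55 in KO and 0.95 in WT cells, and is not read as a rise of the family. That of all genes was 0.022 and -0.021. When activated KO array 3 was left out, 3 of the 5 genes were called in KO cells: Ctla4, Icos (1.31, limma, adjusted p = 2.82e-05) and Btla (-1.29, adjusted p = 0.00147). The call of Btla in both genotypes and that of Icos in WT cells held without any 1 of the 12 arrays. The call of Icos in KO cells was lost without any single KO array other than activated array 3, at adjusted p from 0.0714 to 0.122, and that of Pdcd1 in WT cells without any single native WT array, at 0.0514 to 0.0705. The size for Pdcd1 in WT cells was 0.58 without activated WT array 3.

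**Figure D2:**
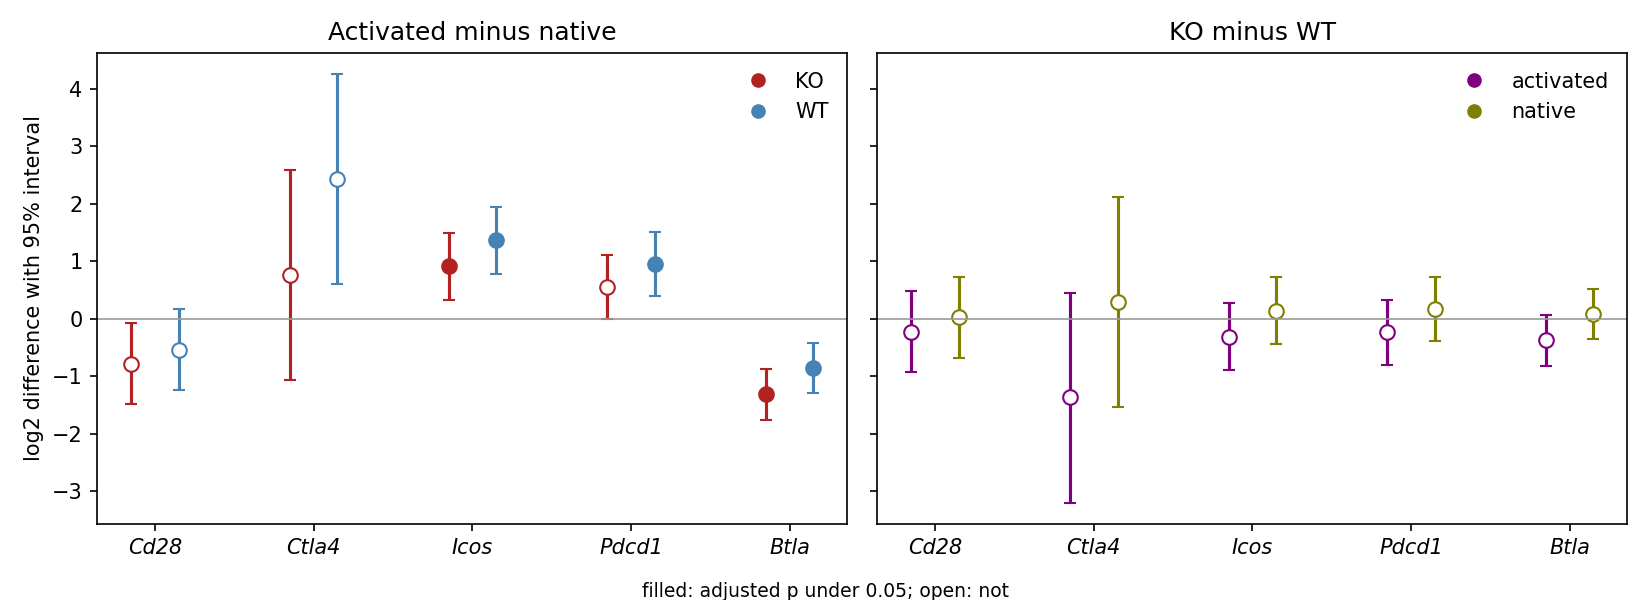
Log2 differences with 95% intervals from the limma fit of all 12 arrays, for activated minus native cells on the left and KO minus WT cells on the right, with filled points at an adjusted p under 0.05. Icos is called higher and Btla lower in both genotypes, Pdcd1 is called higher in WT cells, and no KO minus WT difference is called.

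Ordered by their means, the groups ran for Icos from activated WT (10.98 ± 0.13, SD, n = 3) and activated KO (10.66 ± 0.70) to native KO (9.75 ± 0.07) and native WT (9.62 ± 0.23). For Btla the order was native KO (8.72 ± 0.19), native WT (8.64 ± 0.21), activated WT (7.78 ± 0.33) and activated KO (7.40 ± 0.32). In both genes the step between the native and the activated pair exceeded the larger SD. The 2 genotypes of a state overlapped in both genes, and their means differed by less than the larger SD except for Btla in activated cells. Ctla4 had the order activated WT (10.43 ± 0.42), activated KO (9.05 ± 2.37), native KO (8.29 ± 0.45) and native WT (7.86 to 8.13, SD 0.14), in which the activated KO mean differed from neither neighbour beyond its own spread. Pdcd1 ran from activated WT (7.08 ± 0.65) and activated KO (6.84 ± 0.26) to native KO (6.29 ± 0.05) and native WT (6.13 ± 0.10). Cd28 ran from native KO (11.53 ± 0.47) and native WT (11.50 ± 0.38) to activated WT (10.97 ± 0.14) and activated KO (10.74 ± 0.67), with neighbours apart by less than the larger of their SDs except native and activated WT.

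The next comparison asked whether loss of Aire changed the family in either state. After activation all 5 genes had lower means in KO than in WT cells, and 0 of the 5 were called by limma, as were 0% of all genes. At an unadjusted p under 0.05 there were 0 of the 5 genes and 87 of all genes (0.436%). The KO minus WT difference was -1.37 ± 0.83 for Ctla4 (SE, n = 3 per group; 95% interval -3.20 to 0.45), -0.38 ± 0.20 for Btla (-0.82 to 0.063), -0.32 ± 0.27 for Icos (-0.90 to 0.27), -0.24 ± 0.25 for Pdcd1 (-0.80 to 0.32) and -0.23 ± 0.32 for Cd28 (-0.93 to 0.48). The groups overlapped for all 5, while 1.75% of all genes had groups that did not. With activated KO array 3 left out the difference was -0.078 for Ctla4, 0.09 for Icos and 0.15 for Cd28, while Btla was at -0.35 and Pdcd1 at -0.39. Pdcd1 was at 0.14 without activated WT array 3.

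In the native state all 5 genes had higher means in KO than in WT cells, by small values, and 0 were called by limma (0% of all genes; at an unadjusted p under 0.05, 0 of the 5 and 131 of all genes, or 0.657%). The differences were 0.29 ± 0.83 for Ctla4 (SE, n = 3 per group; 95% interval -1.54 to 2.11), 0.16 ± 0.25 for Pdcd1 (-0.39 to 0.72), 0.13 ± 0.27 for Icos (-0.45 to 0.72), 0.08 ± 0.20 for Btla (-0.36 to 0.52) and 0.023 ± 0.32 for Cd28 (-0.68 to 0.73). Pdcd1 was the only one whose native groups did not overlap, against 7.04% of all genes, and its native values lay at or close to background. The interval was widest for Ctla4. With 1 array left out the difference of Ctla4 ran from 0.15 (without native KO array 2) to 0.55 (without native KO array 1), and that of Icos from 0.034 (without native WT array 3) to 0.26 (without native WT array 1). Set against the WT array with its own number, the native KO array was higher at all 3 numbers for Pdcd1 (0.14, 0.13 and 0.23), at 2 of 3 for Cd28, Ctla4 and Icos and at 1 of 3 for Btla, and 0 of the 5 genes were called with the number as a block.

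The interaction of genotype and state, which tests whether activation moved a gene differently in KO and WT cells, was called for 0 of the 5 genes and 0% of all genes, with 0 of the 5 and 86 of all genes (0.431%) at an unadjusted p under 0.05. Its values were -1.66 ± 1.18 for Ctla4, -0.46 ± 0.28 for Btla, -0.45 ± 0.38 for Icos, -0.40 ± 0.36 for Pdcd1 and -0.25 ± 0.46 for Cd28 (SE, n = 3 per group). Leaving out activated KO array 3 gave -0.37 for Ctla4, -0.043 for Icos and 0.13 for Cd28, and leaving out activated WT array 3 gave -0.027 for Pdcd1. A call in 1 genotype and not in the other, as for Pdcd1, is thus not a shown difference between the genotypes.

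**Figure D3:**
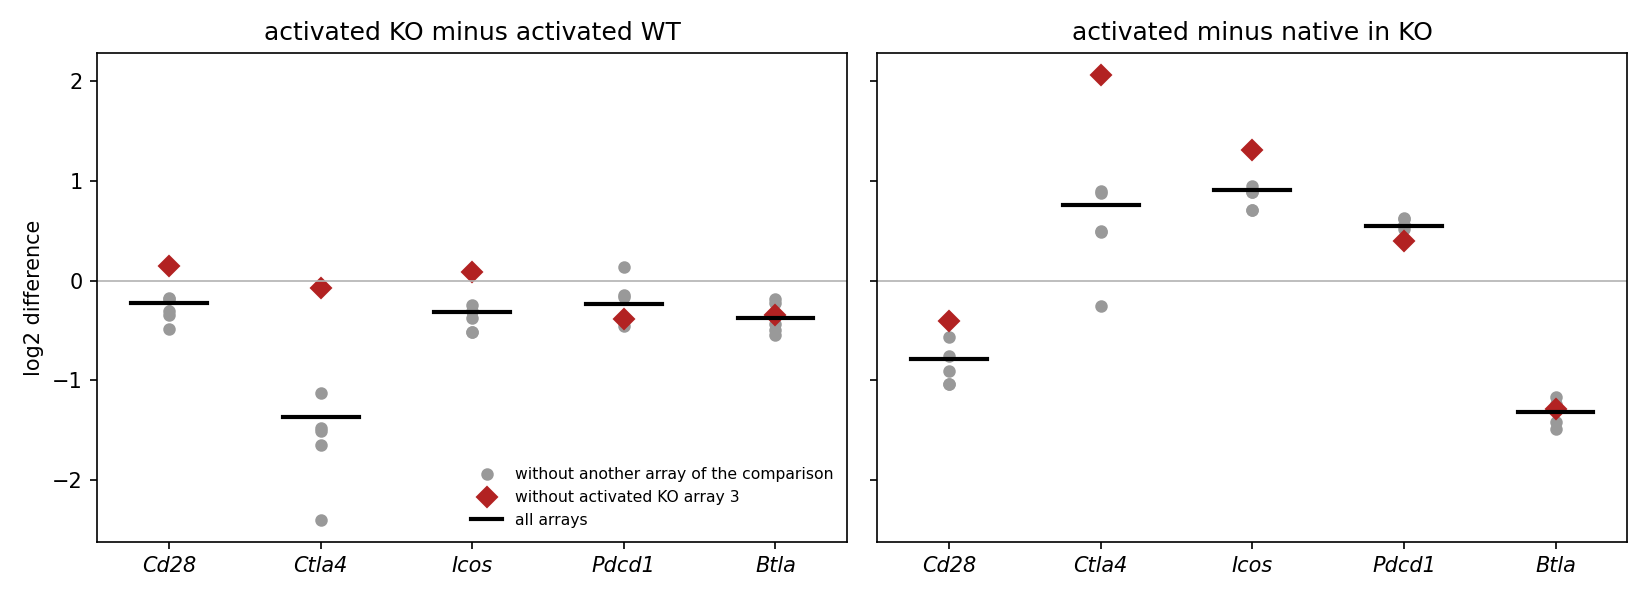
Log2 difference of each gene with all arrays (black line), without activated KO array 3 (red diamond) and without each of the other arrays of the comparison (grey points), for activated KO minus activated WT on the left and activated minus native KO on the right. Without activated KO array 3 Ctla4 is at -0.078 on the left, against -1.37 with it, and at 2.06 on the right, against 0.76 with it, whereas Btla stays below 0 throughout.

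RefSeq promoter sequences, covering the bases before the annotated start, were at hand for Ctla4, Pdcd1 and Btla, and are shown because Pdcd1 rose in WT cells, Btla fell in both genotypes and Ctla4 had the wide spread described above. The 250 bases before each start were searched on both strands for GGAAA, the core bound by NFAT factors of T cell receptor signalling, TGANTCA, the site of AP-1 (Fos and Jun), and TGTTTAC, a site of FOXO factors. Capitals mark the matches, which on this strand read as the complement TTTCC of the NFAT core, and no motif overlapped another. The build is GRCm38.p6, and each sequence runs 5′ to 3′ on the strand of its gene.
Ctla4, chr1:60908775-60909024, plus strand: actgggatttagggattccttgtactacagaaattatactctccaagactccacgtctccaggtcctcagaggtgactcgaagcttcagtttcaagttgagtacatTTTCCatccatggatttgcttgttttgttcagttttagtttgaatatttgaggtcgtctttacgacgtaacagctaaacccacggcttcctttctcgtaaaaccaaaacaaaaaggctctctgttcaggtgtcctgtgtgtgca
Pdcd1, chr1:94052554-94052803, minus strand: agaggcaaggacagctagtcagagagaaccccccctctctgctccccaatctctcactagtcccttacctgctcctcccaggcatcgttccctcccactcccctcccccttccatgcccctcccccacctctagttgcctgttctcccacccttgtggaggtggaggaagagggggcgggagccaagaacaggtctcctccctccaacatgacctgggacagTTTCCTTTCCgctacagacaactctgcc
Btla, chr16:45224087-45224336, plus strand: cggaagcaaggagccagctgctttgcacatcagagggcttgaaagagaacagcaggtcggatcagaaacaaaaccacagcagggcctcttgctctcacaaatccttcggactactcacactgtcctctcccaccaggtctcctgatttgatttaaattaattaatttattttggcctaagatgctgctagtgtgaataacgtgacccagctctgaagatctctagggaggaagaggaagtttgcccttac
The NFAT core occurred once upstream of Ctla4, 144 bases before the start, and as 2 adjoining copies upstream of Pdcd1, 28 and 23 bases before it. It was not found in the Btla window. Of 32851 mouse promoters of the same length 55.6% held it, so that a match is common. TGANTCA was held by 6.75% and TGTTTAC by 3.17% of promoters, and neither was among the letters of these 3 windows. The windows differed in base composition, with 42.4% G or C for Ctla4, 60.4% for Pdcd1 and 47.2% for Btla.

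The ligands and partners of the family were themselves split. Of 11 genes measured, 2 rose and 3 fell on activation in KO cells, and 2 rose and 4 fell in WT cells, with medians of -0.068 and -0.22. Of all genes, 8.72% were called higher and 11.4% lower in KO cells, and 9.72% higher and 10.9% lower in WT cells, and the counts of the lists below are read against these shares. Cd80, the ligand shared by CD28 and CTLA-4, was at 8.86, 7.99 and 8.62 in activated KO and 8.74, 7.94 and 9.34 in activated WT cells, and at background on all native arrays. It rose by at least 2.20 in KO cells (limma, adjusted p = 7.56e-05) and by at least 2.42 in WT cells (adjusted p = 2.11e-05), measured from the background level. Pdcd1lg2, which encodes PD-L2, also rose from background. Its activated mean lay 0.81 above the native background in KO and 0.71 above it in WT cells. Only 2 of the 3 arrays of each activated group had it above their own background, so that these sizes are approximate. Cd86, the other shared ligand, fell by 1.58 ± 0.25 in KO and fell by 1.48 ± 0.25 in WT cells (SE, n = 3 per group; limma, adjusted p = 0.001 and 0.00142). Vsir, the B7-family checkpoint molecule VISTA, fell by 1.14 ± 0.28 in KO cells and fell by 0.90 ± 0.28 in WT cells (limma, adjusted p = 0.0122 and 0.0387). Its fall was called in 20 of the 22 fits described below in KO cells and in 13 of 22 in WT cells. Cd86 was above background on 2 activated KO arrays and 1 activated WT array. The WT count of 4 rested on single arrays: it was 1 without native WT array 1, 2 or 3 or activated WT array 1 or 2, and 2 without native KO array 2. By processing choice this count ran from 1 with median centring to 5 with array weights. Since the cells had been cultured with APC, markers of such cells were examined: 8 of 9 macrophage and dendritic cell markers lay at background on all activated KO arrays and 9 of 9 on all activated WT arrays, as did 5 of 6 B cell markers in both groups. The B cell marker above background was Cd79b, which was higher in native cells, and the markers' part in the ligand results was not tested. In bulk RNA, fewer cells of a type and less RNA per cell cannot be told apart.

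Downstream of CD28, 20 signalling genes were measured, of which 1 rose and 8 fell in activated KO cells and 1 rose and 7 fell in activated WT cells, with medians of -0.27 and -0.33. Akt1, a kinase activated through PI3K, rose by 0.90 ± 0.14 in KO and by 0.81 ± 0.14 in WT cells (SE, n = 3 per group). Rel, the NF-kappaB subunit c-Rel, fell by 1.25 ± 0.20 in KO and fell by 1.27 ± 0.20 in WT cells. Carmil2, a scaffold of CD28 signalling, fell by 0.96 ± 0.20 in KO cells, and Bcl10, a partner of MALT1, fell by 0.93 ± 0.14 in WT cells. Bcl10 also fell in KO cells, with means of 8.44 activated and 9.27 native, and was called in 22 of the 22 fits described below. Carmil2 in WT cells had means of 8.96 activated and 9.64 native and was called in 16 of 22 fits. Leaving out activated KO array 3 gave 3 that rose in KO cells, and 2 that rose and 11 that fell in WT cells, and without activated WT array 2, 2 rose in each genotype.

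Among 6 genes known to respond to CD28 costimulation, 4 rose in each genotype: Il2ra, Tnfrsf9, Slc2a1 and Bcl2l1. Il2ra, the high-affinity chain of the IL-2 receptor, was at 12.85, 12.50 and 12.85 in activated KO cells and at 12.90, 12.28 and 13.00 in activated WT cells, against 7.15, 6.99 and 7.39 in native KO and 6.95, 6.79 and 6.42 in native WT cells. It rose by 5.55 ± 0.20 in KO and by 6.01 ± 0.20 in WT cells, and activated KO array 3, where Ctla4 was at background, had it as high as array 1. Tnfrsf9, the costimulatory receptor 4-1BB, rose by 3.99 ± 0.29 in KO and by 4.02 ± 0.29 in WT cells (SE, n = 3 per group). Il2 and Cd40lg lay at background in all groups, so that the call of Il2 as lower in KO cells (-0.36) gives no size, and it was lost without activated KO array 1 or 2, native KO array 2 or 3, native WT array 3 or activated WT array 3.

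Among 6 factors that promote the decay of such transcripts, 5 fell in each genotype, with medians of -1.36 in KO and -1.33 in WT cells. Zc3h12a, which encodes Regnase-1, an RNase that targets T cell activation transcripts including Icos and Ctla4, was at 6.84, 7.21 and 6.66 in activated KO cells and at 6.89, 6.85 and 7.07 in activated WT cells. Its native levels were 9.16, 9.88 and 9.42 in KO and 9.02, 9.79 and 9.22 in WT cells, with no overlap, and activated KO array 3 was under its background. It fell by 2.58 ± 0.23 in KO and fell by 2.40 ± 0.23 in WT cells (SE, n = 3 per group; limma, adjusted p = 1.12e-05 and 1.77e-05). Zfp36, the ARE-binding protein tristetraprolin, fell by 2.50 ± 0.36 in KO and fell by 2.13 ± 0.36 in WT cells. Rc3h1, which encodes Roquin-1, a repressor of Icos mRNA, fell by 1.15 ± 0.13 in KO and fell by 1.25 ± 0.13 in WT cells, and is named here after its values were seen.

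Of 8 genes of CTLA-4 trafficking, 2 fell in KO and 1 in WT cells, with medians of -0.23 and -0.14, where 20.1% and 20.6% of all genes were called. Trat1, the adaptor TRIM that carries CTLA-4 to the surface, fell by 2.83 ± 0.33 in KO and fell by 2.90 ± 0.33 in WT cells (SE, n = 3 per group), with 1 activated KO and 2 activated WT arrays above background. Lrba, which protects CTLA-4 from lysosomal decay, fell by 0.97 ± 0.27 in KO cells, and its difference in WT cells was -0.80 ± 0.27 (limma, adjusted p = 0.0593). The KO count was 1 without native KO array 1, 2 or 3 or activated KO array 1. The WT count was 3 without activated KO array 3 and 2 without activated KO array 2, and 2 of the genes rose in WT cells without activated WT array 2. In each genotype 1 rose without activated KO array 2. Of 10 phosphatases and other brakes measured, 1 fell in KO and 1 rose in WT cells, with medians of 0.042 and -0.016. Such counts are too small to set apart from the share of all genes, and with array weights 2 rose and 2 fell in WT cells. Dgka, a diacylglycerol kinase, fell by 0.91 ± 0.25 in KO cells, and Cblb, a ubiquitin ligase that raises the need for CD28, rose by 0.46 ± 0.13 in WT cells. Without a call, the means moved the same way for Dgka in WT cells (12.67 activated, 13.33 native) and for Cblb in KO cells (12.07 and 11.67). The KO fall was lost without native KO array 1, 2 or 3, and the WT rise without native WT array 1, 2 or 3 or activated WT array 3. Without activated KO array 2, 2 of these 10 fell in KO cells. Leaving out activated KO array 3 let 1 rise in KO and 1 fall in WT cells, and leaving out activated WT array 2 let 1 rise in KO cells.

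Transcription factors with a known part in the control of these receptor genes moved in both directions. Of 16 measured, 2 rose and 7 fell in KO cells, and 3 rose and 8 fell in WT cells. Irf4 rose by 2.21 ± 0.37 in KO and by 2.77 ± 0.37 in WT cells (SE, n = 3 per group), and Prdm1, which encodes Blimp-1, rose by 1.39 ± 0.33 in KO and by 1.92 ± 0.33 in WT cells. Fos, at background on all activated arrays, fell by at least 3.05 in both genotypes. Nr4a1, an early target of T cell receptor signals, fell by 3.06 ± 0.54 in KO cells, and Jun fell by 3.00 ± 0.43 in WT cells. Both also fell in the other genotype. The mean of Nr4a1 was 7.79 in activated and 10.66 in native WT cells, and that of Jun 8.34 in activated and 11.39 in native KO cells. With native WT array 2 left out, 5 fell in WT cells. Between KO and WT cells no member of these 7 lists was called in either state.

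**Figure D4:**
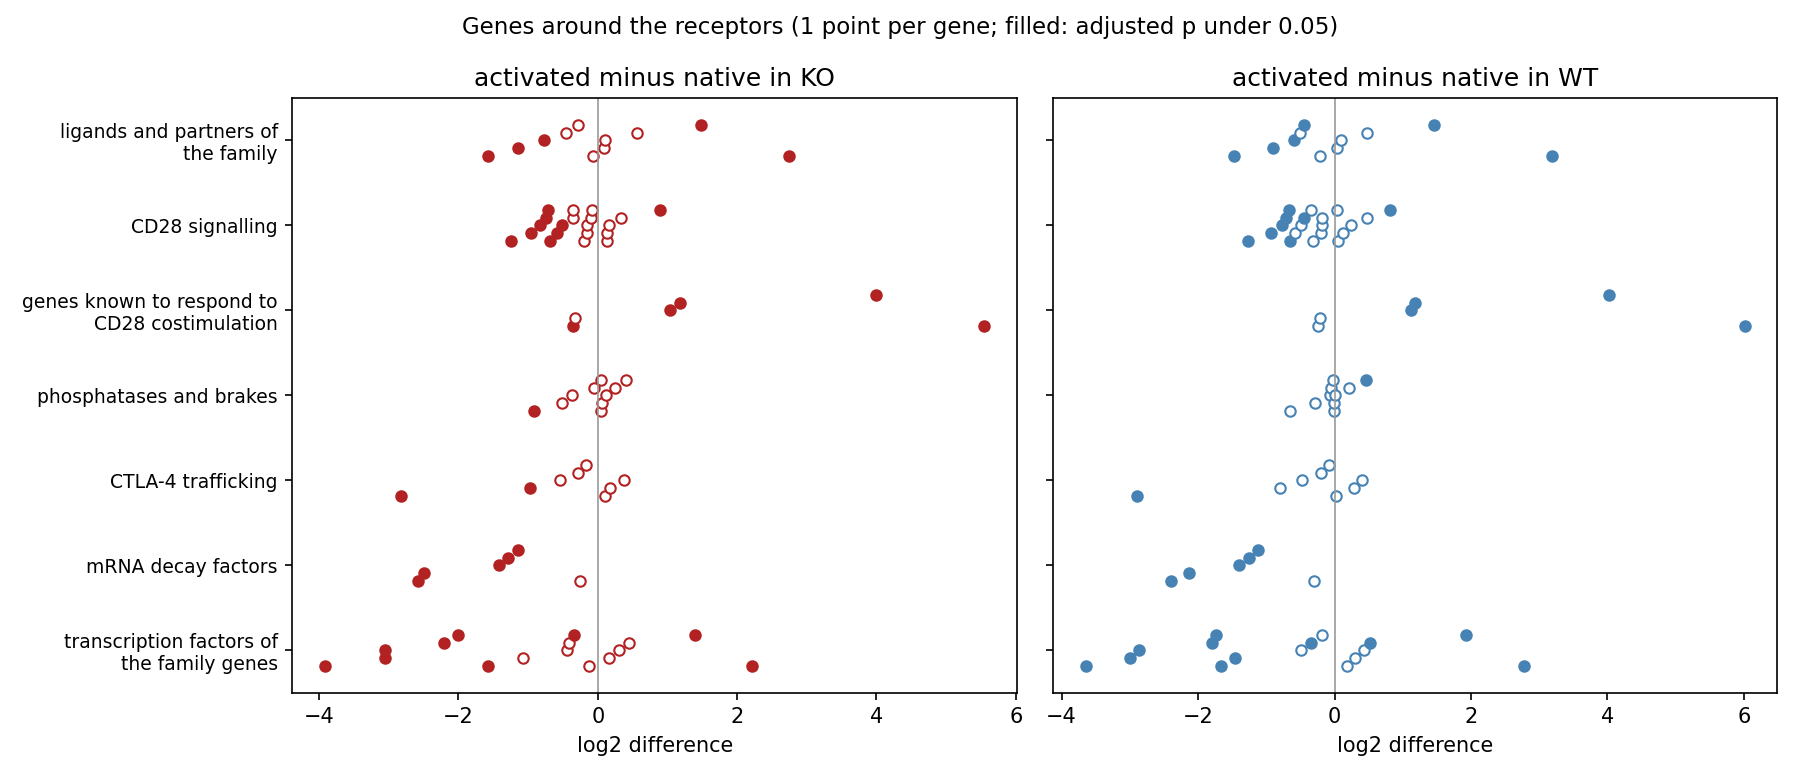
Log2 difference of activated minus native cells for the genes of 7 lists, KO on the left and WT on the right, with 1 point per gene and filled points at an adjusted p under 0.05. All 6 mRNA decay factors lie below 0 in both genotypes, and Il2ra and Tnfrsf9 are the 2 points furthest to the right.

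Markers of other cells were followed beside the family. The mean of 6 neutrophil markers was 8.81, 6.30 and 8.17 on native KO arrays 1, 2 and 3 and 6.94, 6.05 and 5.53 on native WT arrays, and all 6 lay at background on the activated arrays of both genotypes. Of 4 NK cell markers, whose mean was 7.96, 6.95 and 7.40 on native KO and 7.24, 6.56 and 6.65 on native WT arrays, 2 lay at background in each activated group. Of 9 macrophage and dendritic cell markers 5 lay at background in native KO and 6 in native WT cells, and of 6 B cell markers 4 and 5 did. In activated against native cells 3 of 6 neutrophil, 4 of 9 macrophage and dendritic and 2 of 4 NK cell markers fell in KO cells, while in WT cells 0 of 6, 0 of 9 and 1 of 4 did. Of the B cell markers 1 fell in each genotype (Cd79b), in WT cells in only 3 of the 12 fits with 1 array left out (those without native WT array 2 or activated KO array 2 or 3), and of 3 CD4 T cell markers 1 rose in each (Zbtb7b). Of the CD8 T cell markers 2 fell in KO cells (Cd8a and Cd247) and 0 in WT cells. Single arrays moved these counts: without native KO array 2, 6 neutrophil markers fell in KO cells, without native KO array 1 or 3 or activated KO array 1, 2 macrophage and dendritic cell markers did, and without activated KO array 2, 5 CD8 T cell markers did. In KO cells 1 CD8 T cell marker fell without native KO array 2 or 3, 1 NK cell marker without native KO array 1 and 2 B cell markers without native KO array 3. In WT cells 2 CD8 T cell markers fell without activated KO array 2 or 3, and 2 NK cell markers fell without native KO array 1 or 2, native WT array 2 or activated KO array 2 or 3. Single markers also fell where none had: 1 CD4 T cell marker in KO cells without native KO array 1, and in WT cells 1 CD8 T cell marker without activated WT array 2, 1 macrophage and dendritic cell marker without activated KO array 2 and 1 neutrophil marker without native WT array 3. Whether other cells carried these transcripts, and what part such cells had in the native levels of the receptor genes, was not tested.

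The genes most like each receptor in pattern were ranked by Pearson's r of log2 values over the 12 arrays, among 9617 genes above background in at least 1 group. These arrays fall into native and activated ones and share activated KO array 3, so that a high r is a description of these 12 values. Nearest to Ctla4 were Dtx3 (r = 0.984), Hdac7 (0.975), a histone deacetylase of T cells, Pdk1 (0.971), an inhibitor of pyruvate dehydrogenase, Nipsnap1 (0.965) and Rgs11 (0.964). Icos was followed most closely by Myo5a (0.992), a myosin motor, and Lrmp (0.986), Fam162a (0.986), Prelid2 (0.985) and Scd1 (0.985), a fatty acid desaturase. For Btla the list was Cd226 (0.972), a costimulatory receptor, Phyhd1 (0.971), Tox (0.971), Tlr1 (0.969) and A630023P12Rik (0.966). Cd28 had Slc25a36 (0.946), Jmjd1c (0.944), Gm614 (0.938), Traf3ip2 (0.934) and Zfp654 (0.933), and Pdcd1 had Alcam (0.941), Slc35c2 (0.941), Cd244a (0.937), Htra2 (0.936) and Sephs2 (0.935). Tox, a factor linked to sustained expression of inhibitory receptors, was at 7.48, 8.52 and 7.28 in activated KO and 8.13, 8.69 and 7.89 in activated WT cells, against 9.86, 9.93 and 10.12 in native KO and 10.07, 10.05 and 9.95 in native WT cells. Every activated array lay below every native one, as for Btla, which its choice by r over these same arrays made likely. The states did not overlap for 30.9% of all genes in KO and 41% in WT cells.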

How the data were processed

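The authors deposited log2 expression values for 35556 transcript clusters on each of 12 arrays, for which the submitters' processing notes name Partek and RMA. The sources used here give no versions or options. RMA compresses differences near background. RNA was extracted with Trizol and RNeasy columns and labelled as sense DNA, per the labels' protocols. Rows were named through the platform annotation with symbols updated by Entrez identifier. A single symbol was given for 21789 rows, several for 1621 and none for 12146. The brightest row per gene was kept, leaving 19938 genes.

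Group means were fitted over all 12 arrays with limma 3.58.1 in R 4.3.3 (lmFit, eBayes), and p-values were adjusted over all genes by Benjamini-Hochberg and called under 0.05. The fit was tested on simulated data with independent noise, which held no outlying array and no effect shared within an experiment. With 3 arrays in a group, precision is limited by their number. The receptor genes and gene lists were chosen with earlier results of these data known. From each list the text names all called genes where 4 or fewer were called, and otherwise the 2 largest rises and 2 largest falls. Called neutrophil, macrophage and dendritic, and NK cell markers are counted but not named. Some named genes are also given in the genotype where this rule did not pick them. For each receptor gene the text names the 5 genes with the highest Pearson's r. Some genes of the lists are not reported here. Deviations of same-numbered native KO and WT arrays from their group means correlated at 0.58, 0.40 and 0.16, which pairs the native arrays by number. The fit reported has no such block, and the fit with it was an alternative. For activated arrays the values were 0.69, -0.02 and -0.01, and they were not taken as pairs. The experiment numbers in the descriptions nevertheless put a KO and a WT array together in each experiment, in both states. No experiment held both native and activated arrays.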

Additional observations from a re-analysis of the deposited data

How the results depend on the processing

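The differences, calls and list counts were recomputed with another choice of row, all rows, a filter on dim genes, quantile normalization, median centring, another prior, array weights, the arrays of a comparison alone, a replicate block and without each array. The rankings by r, the SD ranks and the group orders were not recomputed, and the interaction had no fit on the arrays of a comparison alone. The calls of Btla in both genotypes and of Icos in WT cells held throughout. On activation in KO cells 2 of the 5 genes were called in the fit reported, 1 with the KO arrays alone, and 1 to 3 with 1 array left out. The block of the titles added Cd28 there, and array weights added Ctla4. In WT cells the count was 3 in the fit reported, and 2 to 4 with 1 array left out. There the block of the titles, array weights and the WT arrays alone each added Ctla4. The replicate block, by the number in the titles or by the experiment number in the descriptions, changed no KO against WT call. By the titles it passed Cd28 in KO cells (-0.79, limma, adjusted p = 0.0477) and Ctla4 in WT cells (2.43, 0.0427). That block joins native and activated arrays of the same number, which came from different experiments. Their deviations from the group means correlated at 0.34, -0.14 and 0.26 in KO and 0.23, 0.01 and -0.1 in WT cells. The filter, which removed Pdcd1 from the test, passed Ctla4 in WT cells (0.0284).

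Signs turned only for values that were not called. With array weights, whose estimation stopped short of its tolerance, activated KO minus WT was 0.19 for Cd28, 0.39 for Ctla4 and 0.055 for Btla, the interaction was 0.05 for Cd28 and 0.055 for Btla, and Ctla4 passed on activation in both genotypes (2.24 each). Native KO minus WT of Cd28 was -0.0011 by quantile normalization and -0.0022 by centring. With 1 array left out, activated KO minus WT ran from -0.49 to 0.15 for Cd28, -0.52 to 0.09 for Icos and -0.46 to 0.14 for Pdcd1. Native KO minus WT ran from -0.20 to 0.27 for Cd28 and -0.035 to 0.19 for Btla, the interaction from -0.51 to 0.13 for Cd28, and activation in KO cells from -0.26 to 2.06 for Ctla4. The cause was not tested.

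Over all genes, calls on activation rose to 7526 in KO and 7687 in WT cells with all 35556 rows, against 4002 and 4107, and to 7609 in WT cells with array weights. Native KO against WT had 0 calls, 1 with the filter or the other prior, 2 with all rows, 3 with array weights and up to 10 without native KO array 2. At the 99th percentile as background Btla was above it in 3 groups in place of 4.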

Other observations

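Cd28 was among the more variable transcripts of the native arrays, although its means in KO and WT cells were nearly equal. Its SD was 0.47 in native KO cells, where 191 of 19938 genes had a higher one, and 0.38 in native WT cells, where 268 did. The median SD of all genes was 0.122 in native KO and 0.099 in native WT cells. Array 2 was the highest in both genotypes, at 11.97 and 11.94, and the experiment numbers place these arrays in the same experiment. Array 2 was also the highest in both native groups for other genes, such as Rel, Slc2a1 and Zc3h12a, though not for Icos or Btla. The SD ranks run over all 19938 genes, of which 9617 were above background in at least 1 group. Differences near background are compressed by RMA. Among the activated WT arrays the SD of Cd28 was 0.14, close to the median of 0.159. Pdcd1 had its highest value of all, 7.83, on activated WT array 3, and 271 genes had a higher SD in that group than its 0.65.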
